A study of Mus musculus with 12 samples.

Results

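AGO2-bound RNA over input was examined in tibialis anterior muscle of mice without mir-486 (mir-486 KO). The members are all peaks that the authors listed for the 2 mir-486 KO total immunoprecipitated (IP) libraries, each set against its own size-matched input. There were 119859 listed peaks in set 1 and 256219 in set 2, which gives 376078 of the 713343 peaks listed over input for the whole series. The remaining 337265 peaks belong to the 2 WT libraries, which are used here only where a difference is shown. All mice were male and 6 months old, and the KO animals lack the mir-486 hairpin in every cell. The labels give the strain as FVB N/J for mir-486 KO and C57BL/6 for WT, whereas the study's methods describe backcrossing to C57BL/6J, so genotype and strain cannot be told apart from the labels alone. The study counts more muscles per genotype than there are total IP libraries, and neither source says whether the 2 library sets come from different mice. A spread over the sets is therefore a spread between libraries, which may be technical.

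AGO2 is the Argonaute protein that carries a mature microRNA and uses its seed, the bases near its 5′ end, to pair with messenger RNA. Pairing is best known in 3′ UTRs, where it lowers translation and shortens the life of the message. Skeletal muscle is rich in a few microRNAs of its own, among them miR-1, miR-206 and miR-133, and miR-486 is made from an intron of Ank1. In eCLIP, RNA is cross-linked to AGO2 by ultraviolet light, so that reads from the IP come both from the microRNAs that AGO2 holds and from the transcripts it sits on.

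The deletion was visible in the lists. Mir486 lies on the plus strand at chr8:23142555-23142682 (GRCm38), within Ank1, which encodes an ankyrin of the membrane skeleton. Neither KO list held a peak at this hairpin (0 in each), against 3 and 6 peaks in the WT lists, all of which passed the enrichment thresholds given below. Elsewhere in Ank1 the KO libraries had 36 and 52 listed peaks, of which 0 were enriched in either library. The highest log2 fold in Ank1 was 2.58 in KO set 1 and 2.87 in KO set 2.

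The sequences below carry the results. The mature microRNAs are from RefSeq (GRCm38.p6), with the seed at bases 2 to 8 in capitals. They are shown because their hairpins were enriched in both KO libraries, and because their seed matches or their own sequence recurred at other sites.
miR-133b-3p: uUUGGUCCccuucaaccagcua
miR-206-3p: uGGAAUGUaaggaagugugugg
miR-29a-3p: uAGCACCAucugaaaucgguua
miR-26a-5p: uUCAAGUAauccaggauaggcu
miR-22-3p: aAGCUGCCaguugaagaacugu
let-7b-5p: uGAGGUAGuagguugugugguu

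The next stretches are from recurrent 3′ UTR and CDS sites of the KO libraries, with the 7-nt match to a seed in capitals. Blcap and Tbc1d15 hold the miR-1/miR-206 match, Akap9, Snap23 and Pgam2 the miR-133 match, Col6a3 the miR-29 match, Mat2a the miR-26 match and Fam126b the let-7 match. Those of Snap23 and Pgam2 lie in the CDS and the others in a 3′ UTR.
Blcap, chr2:157557769-157557797, minus strand: ctgcgggtaccACATTCCtaatggagcct
Tbc1d15, chr10:115199331-115199359, minus strand: ccttttcaataACATTCCttagtattttt
Akap9, chr5:4079774-4079802, plus strand: atattcgatgGGACCAAtacatgcacagc
Snap23, chr2:120586176-120586204, plus strand: gaagaaggcatGGACCAAataaataaaga
Pgam2, chr11:5803450-5803478, minus strand: ctggatgttacGGACCAAatgtgggtgcc
Col6a3, chr1:90767404-90767429, minus strand: acctgtcaataTGGTGCTaaatgtgt
Mat2a, chr6:72433211-72433239, minus strand: aaatcccttcaTACTTGAacattttctaa
Fam126b, chr1:58525679-58525707, minus strand: gtgcgtttttcCTACCTCacttaggaggc

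The last set is from intronic sites, shown because these stretches resemble a mature microRNA itself rather than its target. Capitals mark bases identical to the microRNA in a local alignment. Eif2b3, Tspan8, Rbms3 and Gm26740 are set against miR-133b-3p, Dclk1 against miR-29a-3p and Fam117b against miR-22-3p.
Eif2b3, chr4:117041899-117041927, plus strand: aagattttcCCCCcTCAACCAGCTgtcct
Tspan8, chr10:115822757-115822785, plus strand: gagcTTaGGTCCCCTTCACCAGCTgtcct
Rbms3, chr9:117375681-117375709, minus strand: atatgGGTCCCCTTCAAtCAGgagctcca
Gm26740, chr10:22284735-22284763, minus strand: tttcctGTCCCCTTCAACCAGCTtcctct
Dclk1, chr3:55464925-55464953, plus strand: caaaaagttTAGCACCATCTGAAAacatt
Fam117b, chr1:59974521-59974549, plus strand: aatagcAAGCaGCCAGTGAAGAACTGTtt

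Few listed peaks stood far above input. A peak is called enriched here when the authors' log2 fold of IP over input is at least 3 and their −log10 p is at least 3. KO set 1 had 1016 enriched peaks, or 0.848% of those listed, and KO set 2 had 3148, or 1.23%. The WT libraries had 3297 (3.57%) in set 1 and 3479 (1.42%) in set 2. The median log2 fold of all listed peaks was 0.38 in KO set 1 and 0.45 in KO set 2. The folds moved in steps that whole numbers of reads give: 89.9% of listed peaks in KO set 1 and 73.4% in KO set 2 lay on steps of at most 5 input reads, within a relative tolerance of 1e-06. Of the enriched peaks, 66.7% in set 1 and 48.5% in set 2 lay on steps that 1 input read gives, so that these folds can rest on a single input read. At that step a peak needed at least 19 IP reads in set 1 and 14 in set 2 to pass the fold threshold. The lists do not hold the counts, so absolute depth is unknown, and the intervals below cover counting error over peaks only.

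MicroRNA hairpins made up a small part of the listed peaks and a large part of the enriched ones. They were 0.317% of listed peaks in KO set 1 and 0.168% in KO set 2. Among enriched peaks their share was 22.05% (224 peaks, 95% Wilson interval 19.6 to 24.7) in set 1 and 8.13% (256 peaks, 7.23 to 9.14) in set 2. Of all listed hairpin peaks, 58.9% were enriched in set 1 and 59.5% in set 2, whereas 1.61% and 3.52% of listed 3′ UTR peaks were.

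3′ UTRs held the largest share of enriched peaks in both KO libraries, though in set 2 its interval (31.1 to 34.4) met that of CDS. At a log2 threshold of 4 the mean share over the libraries was 21.4% for 3′ UTRs, below 30.7% for introns and 30.9% for hairpins. The share was 34.7% in set 1 and 32.7% in set 2 (33.7% ± 1.43, SD, n = 2), against 18.3% and 11.4% of listed peaks. CDS held 11.02% of enriched peaks in set 1 and 30.6% in set 2 (20.8% ± 13.9, SD, n = 2), a difference far outside the counting intervals of 9.24 to 13.1 and 29.04 to 32.3. Introns held 25.7% and 22.05%, noncoding exons 3.54% and 3.30%, and 5′ UTRs 2.85% and 2.76%. Among listed peaks CDS held 35.4% and 39.7% and introns 39.5% and 43.1%, so both had smaller shares among enriched peaks. Noncoding exons were 2.79% and 2.70% of listed peaks and 5′ UTRs 3.56% and 2.84%, near their enriched shares. The 2 KO libraries were thus alike in their 3′ UTR and intron shares and unlike in their CDS and hairpin shares. For hairpins the number of enriched peaks was close, 224 and 256, among 1016 and 3148 enriched peaks of every region.

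**Figure D1:**
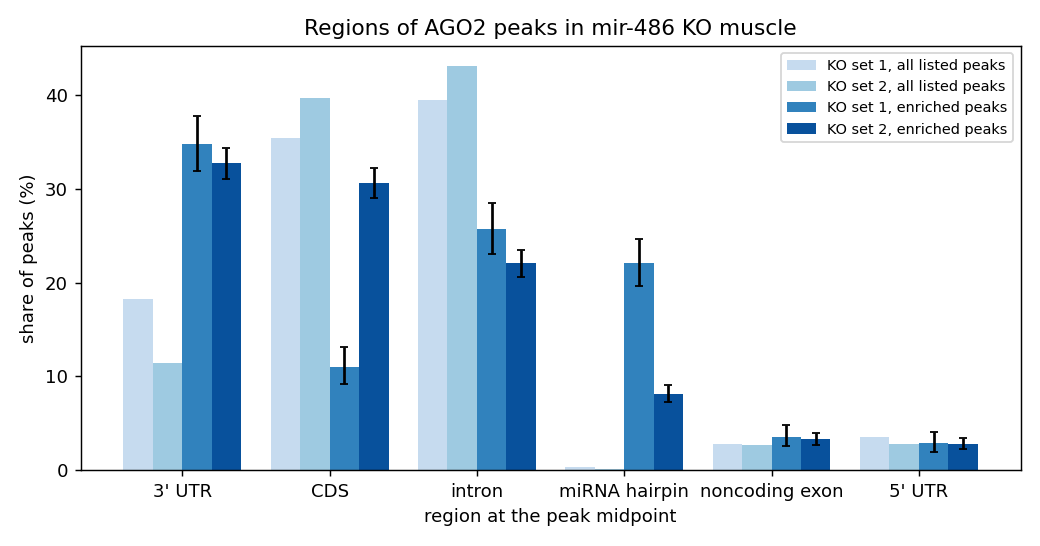
Share of peaks (%) by region at the peak midpoint in KO set 1 and KO set 2, for all listed peaks (light bars) and enriched peaks (dark bars, with 95% Wilson intervals). Hairpins were 22.05% and 8.13% of enriched peaks, against 0.317% and 0.168% of listed peaks, and 3′ UTRs were 34.7% and 32.7% of enriched peaks.

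Recurrence over the 2 library sets was the replicate check that the lists allow. Enriched peaks that overlapped by at least 1 nt on the same strand were joined into 448 recurrent sites. These took in 704 of the 1016 enriched peaks of set 1 (69.3%) and 795 of the 3148 of set 2 (25.3%). By region, 145 sites lay in 3′ UTRs, 114 in microRNA hairpins, 102 in introns, 58 in CDS, 16 in 5′ UTRs, 12 in noncoding exons and 1 between genes. Hairpins recurred most: 94.6% of the enriched hairpin peaks of set 1 and 83.6% of those of set 2 were in a recurrent site. The same shares were 53.0% and 22.04% for 3′ UTRs, 62.5% and 10.4% for CDS, and 74.3% and 28.7% for introns.

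The folds of the recurrent sites ranged widely by region. The median log2 fold was 6.02 in set 1 and 6.24 in set 2 for hairpins, 4.26 and 4.50 for introns, 3.74 and 4.002 for CDS, and 3.73 and 3.74 for 3′ UTRs. Across sites the order of folds in the 2 sets was alike for hairpins (Spearman's rho 0.71 over 114 sites) and introns (0.64 over 102 sites), and little alike for 3′ UTRs (0.18 over 145 sites). These are descriptions over sites that had to pass the same threshold in both sets, and sites are not replicates.

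**Figure D2:**
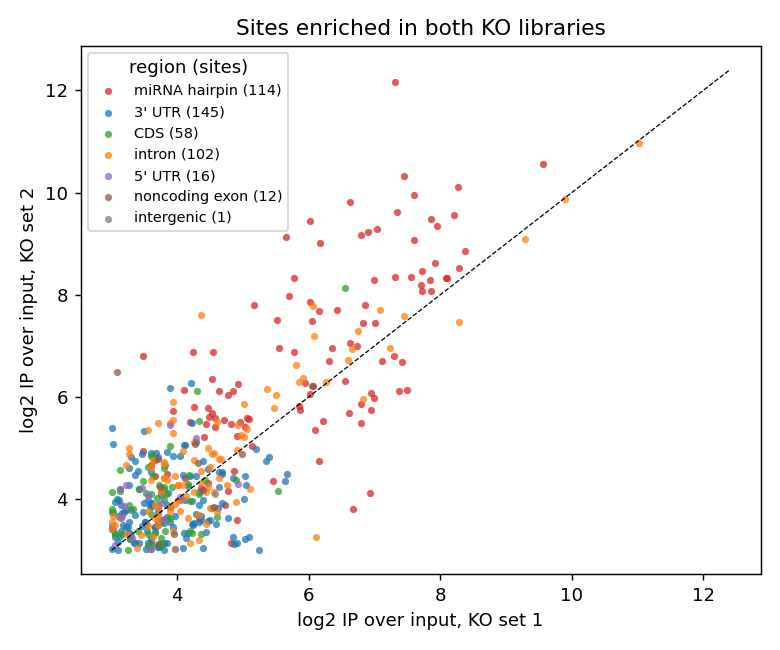
log2 fold of IP over input in KO set 1 (x axis) and KO set 2 (y axis) for the 448 recurrent sites, coloured by region, with equality as a dashed line. Hairpin and intronic sites extend above 10, whereas 3′ UTR and CDS sites lie mostly between 3 and 6.

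The 25 highest recurrent sites, ranked by the lower of the 2 log2 folds and taken once per gene, were 20 microRNA hairpins and 5 intronic sites. The highest hairpin was Mir27a, at 9.57 in set 1 and 10.56 in set 2. Mir149 followed at 8.37 and 8.85, Mir378a at 8.28 and 8.53, and Mir133b, which gives a muscle microRNA, at 8.27 and 10.10. The folds of Mir27a correspond to at least 1744 IP reads over 1 input read in set 1 and 2566 over 1 in set 2.

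In all, 107 microRNA genes had an enriched peak in both KO libraries, of 197 listed in both (54.3%), against 466 of 11735 genes of every kind (3.97%). The let-7 genes, whose microRNA is known from developmental timing, were complete, with 9 of 9 listed genes enriched in both. Their log2 folds ran from 4.58 to 8.09 in set 1 and from 5.595 to 9.34 in set 2. All 6 listed miR-30 genes recurred, at 6.01 to 7.85 in set 1 and 8.35 to 9.94 in set 2, as did all 4 miR-29 genes, at 4.95 to 7.85 and 5.50 to 10.33. Other families were incomplete, with a recurrent site in 8 of 11 listed miR-15/miR-16/miR-195 genes and 5 of 6 genes of the miR-23/27/24 clusters. Genes that share the seed AGCAGCA, the miR-15/16 seed, numbered 7 among the hairpins matched to RefSeq. Genes that give the same mature microRNA, such as Mir30c-1 and Mir30c-2 for miR-30c-5p, are counted apart here. Their reads may not be separable by locus, so the gene counts are not counts of distinct microRNAs.

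The muscle microRNAs were present without miR-486. Mir206 stood at 7.38 in set 1 and 6.12 in set 2, Mir1a-2 at 6.99 and 5.97, and Mir1a-1 at 4.73 and 3.89. Mir133a-1 was at 7.01 and 7.45 and Mir133a-2 at 6.93 and 4.12. Mir1a and Mir206 were thus higher in set 1, while 79 of the 107 genes were higher in set 2. Mir451a, which is made in red blood cells, differed most visibly between sets, at 7.31 and 12.17, and Mir144 of the same cluster was at 5.66 and 9.14. The gap was present in WT too, at 7.90 and 11.72 for Mir451a and 5.32 and 9.77 for Mir144. None of the 5 red blood cell marker genes listed in both KO libraries was enriched in either. Their median best log2 fold was 0.68 in KO set 1 and 1.73 in KO set 2. Whether blood in the muscle has a part in the Mir451a difference was not tested.

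**Figure D3:**
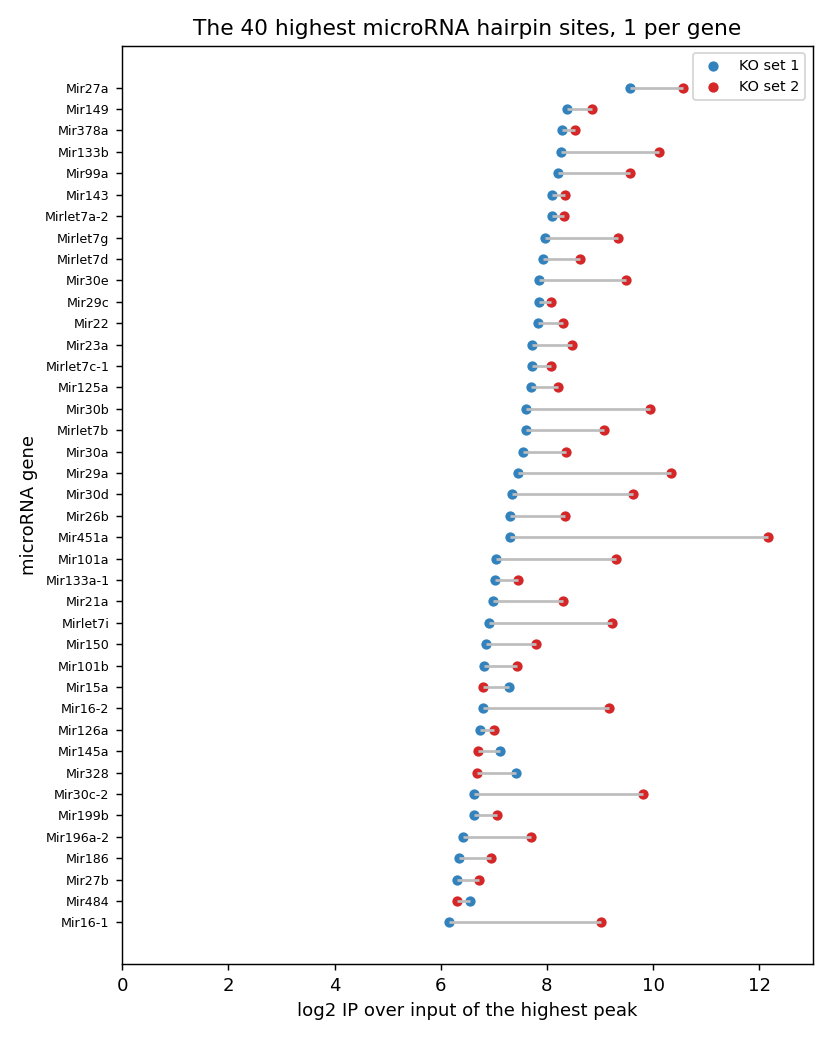
log2 fold of IP over input of the highest recurrent peak for the 40 highest microRNA genes, with KO set 1 in blue and KO set 2 in red. Most genes are higher in set 2, and Mir451a spans the widest gap, from 7.31 to 12.17.

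Recurrent 3′ UTR sites were broad, with a median width of 240 nt, and had lower folds than hairpins. By the lower of the 2 folds the highest was in Sgk1, a kinase of the response to glucocorticoid and growth factors, at 5.20 in set 1 and 4.98 in set 2. Its folds correspond to at least 253 IP reads over 3 input reads and 1230 over 23. Ndrg3 followed at 5.399 and 4.83, and Calm2, a calmodulin gene, at 5.35 and 4.76. Tet3, which oxidizes methylated cytosine, was at 4.68 and 4.53. Mat2a, which makes the methyl donor S-adenosylmethionine, was at 5.68 and 4.49, and Vamp2, a vesicle fusion protein, at 5.63 and 4.35.

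CDS sites had a median width of 144 nt. The highest by the same measure, in Mos, was a narrow site of 24 nt at 6.55 in set 1 and 8.13 in set 2. The next was in Rhot1, which tethers mitochondria to their motors, at 4.41 and 4.37. Snap23, a membrane fusion protein, was at 4.32 and 5.52, and Nmrk2, a muscle enzyme of NAD synthesis, at 5.53 and 4.15. Genes with the most sites were H19, Tmem106b, Ccnk, Pdhb and Pde4d, with 3 each. The sites of H19, a long noncoding RNA of growing muscle, were at 4.31, 4.27 and 3.96 in set 1 and at 4.70, 5.09 and 3.32 in set 2.

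The recurrent 3′ UTR sites were read for 7-nt matches to the seeds of 22 microRNA families, in 61 nt around the centre of each site. At least 1 match was present in 60 of 145 sites (41.4%, 95% Wilson interval 33.7 to 49.5), against 17.2% of 48800 listed 3′ UTR peaks, pooled over both lists, that were not enriched in either KO library. The miR-1/miR-206 match ACATTCC was in 26 sites (17.9%, 12.5 to 24.98) against 1.27% of the listed peaks. The miR-133 match GGACCAA was in 8 sites (5.52%, 2.82 to 10.5) against 0.875%. The miR-29 match was in 6 sites (4.14%, 1.91 to 8.73) against 1.58%, and the miR-26 match in 5 (3.45%, 1.48 to 7.82) against 0.807%. Each of the other families was matched in at most 4 sites. miR-9, a microRNA known from brain that was read for comparison, was among them with 3 sites (2.07%, 0.706 to 5.91) against 0.730%. Its ratio to the listed peaks, 2.84, was above the 2.61 of miR-29 and below the 4.27 of miR-26. In KO set 2 the miR-9 match was in 22 of 1030 enriched 3′ UTR peaks (2.14%, 1.41 to 3.21). The miR-9 match ACCAAAG can overlap that of miR-133, and it did in 1 of the 3 sites and in 8 of the 22 peaks.

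CDS sites held the same 2 muscle matches at the front. The miR-133 match was in 6 of 58 sites (10.3%, 4.83 to 20.8) against 0.849% of listed CDS peaks, and the miR-1/miR-206 match in 5 (8.62%, 3.74 to 18.6) against 0.661%. Intronic sites did not show them to the same degree, with 4 of 102 holding the miR-1/miR-206 match (3.92%) against 2.44% of listed intronic peaks, and 1 the miR-133 match (0.980%) against 1.06%. In the WT libraries the miR-1/miR-206 match was in 13.4% of enriched 3′ UTR peaks of set 1 and 6.68% of set 2. The same shares were 13.03% and 8.35% in the KO libraries. Among listed 3′ UTR peaks that were not enriched it was in 2.36% in WT set 1 and 1.30% in WT set 2. The KO share of 1.27% was pooled over both KO lists, so these backgrounds are not built alike. A match is a run of letters in a window and not a mapped site of pairing.

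**Figure D4:**
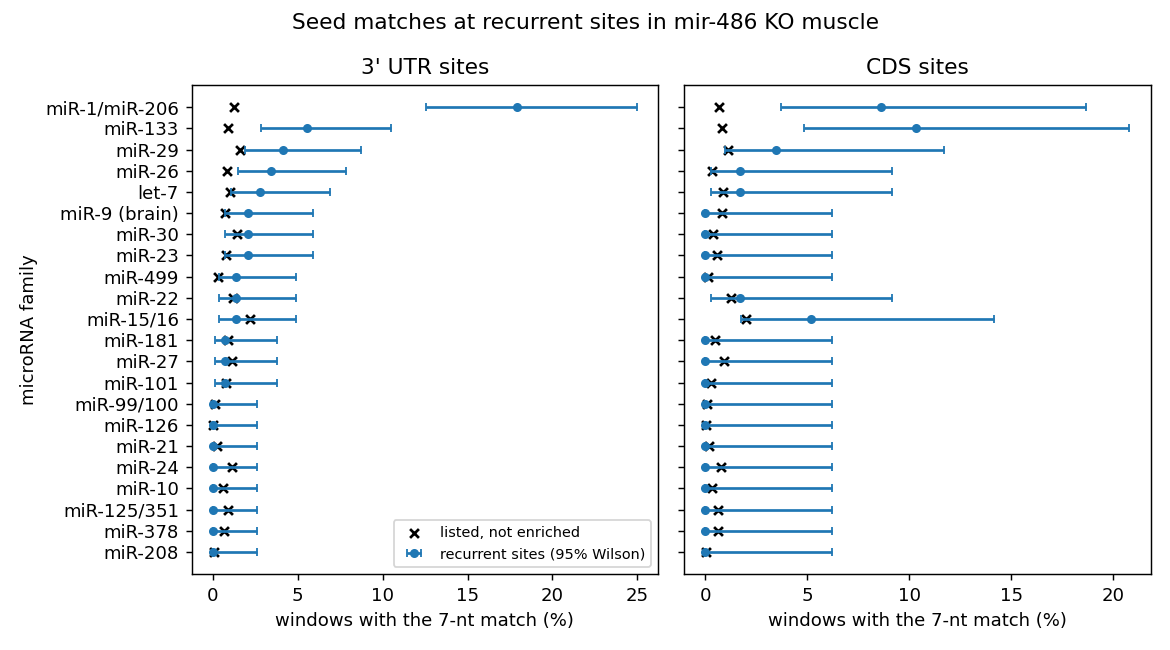
Share of 61-nt windows (%) with the 7-nt match to each microRNA family at recurrent 3′ UTR sites (left) and CDS sites (right), as points with 95% Wilson intervals, and at listed peaks of the same region not enriched in either KO library, as crosses. The miR-1/miR-206 and miR-133 points stand clear of their crosses in both panels.

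Intronic sites were of another shape. Their median width was 26 nt, close to the 27 nt of hairpin sites, and 87 of 102 were at most 35 nt wide, whereas 0 of 145 3′ UTR sites were. By the lower of the 2 folds the highest recurrent site lay in an intron of Eif2b3, which encodes a subunit of a translation initiation factor, at 11.03 in set 1 and 10.98 in set 2. Tspan8 followed at 9.89 and 9.87, Rbms3 at 9.29 and 9.09, Prkaca at 8.28 and 7.46 and Hs6st2 at 7.45 and 7.59. Each of the 5 resembled miR-133 by the measure below.

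Many of these stretches resembled a mature microRNA in the sense direction, as the printed sequences show. The 41 nt around each centre were aligned locally to 22 mature sequences, scoring 1 for a match, -1 for a mismatch and -2 for a gap, and a score of at least 12 was taken as resemblance. By this measure 50 of 102 intronic sites (49.0%, 95% Wilson interval 39.5 to 58.6) resembled a microRNA, all of them at most 35 nt wide. On the opposite strand of the same windows 1 did. Among listed intronic peaks not enriched in either library, 1.13% did, and among those of at most 35 nt 3.254%. Of 145 3′ UTR sites 0 did, of 58 CDS sites 1 and of 12 noncoding exon sites 3. The measure was chosen after the sites had been seen.

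The microRNA most often matched was miR-133, in 26 of the 50, with miR-22 in 5, miR-1/miR-206 in 4 and miR-378 in 3. The host genes of these stretches, such as Htr3a and Grm5, which encode receptors of nerve cells, are named only by position. Reads from a mature microRNA that align to a similar stretch of the genome and reads from the host intron cannot be told apart in these lists. The 50 sites had a median log2 fold of 4.58 in set 1 and 4.84 in set 2, beside 3.93 and 4.17 for the other 52. Dclk1 (6.75 and 7.30) and Grm5 (6.08 and 7.19) are examples with miR-29 and miR-125.

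**Figure D5:**
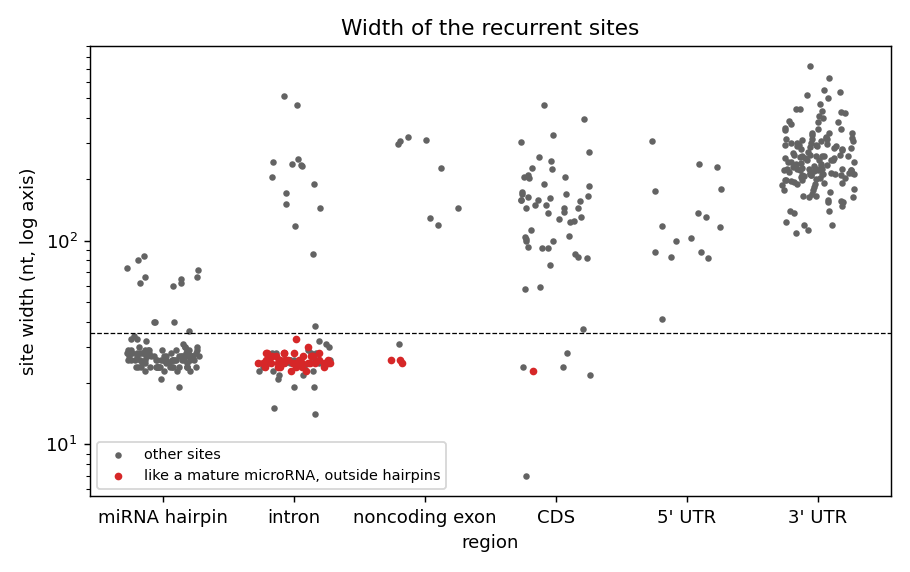
Width in nt (log axis) of the recurrent sites by region, with sites outside hairpins that resemble a mature microRNA in red and a dashed line at 35 nt. The red sites lie with the hairpins, below the line, and 3′ UTR sites lie above it.

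In the gene lists, a pair of values gives a gene's best log2 fold in set 1 and in set 2, which need not lie at the same place. The lists were read against all genes listed in both libraries, of which 4.93% were enriched in set 1, 14.3% in set 2 and 3.97% in both. They were chosen with results of these data known, and genes with more listed peaks have more chances to hold an enriched one. The median number of listed peaks per gene in set 1 was 5 over all genes and 29 over glycolysis and glycogen genes.

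Of 29 glycolysis and glycogen genes listed in both, 5 were enriched in both (17.2%): Pfkfb3, which sets the level of a glycolytic activator, Gbe1, Pgam2, Hk1 and Eno3. Pfkfb3 had its site in the 3′ UTR, at 5.05 in set 1 and 4.28 in set 2. Gbe1, the glycogen branching enzyme, had 2 recurrent sites in the CDS, with best folds of 4.19 and 4.11, and Pgam2, the muscle phosphoglycerate mutase, had 1 there at 3.60 and 3.71. The Hk1 site was intronic and resembled miR-133. Eno3 was enriched in an intron in set 1 and in the CDS in set 2, with no shared site.

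Of 27 collagen and extracellular matrix genes, 5 were enriched in both (18.5%). Col6a3, a collagen of the muscle fibre's surroundings, was at 3.54 in its 3′ UTR in set 1 and at 4.68 in its 5′ UTR in set 2. Its recurrent site lay in the 3′ UTR and holds the miR-29 match. Lamc1 was at 3.81 and 3.37 and Col1a1 at 3.26 and 3.33. Among muscle transcription factors 4 of 31 were enriched in both (12.9%), namely Hdac4 (4.63 and 4.73), which represses muscle genes, Nfatc3, Sox6 and Purb. The recurrent sites of Hdac4, Nfatc3 and Purb lay in the 3′ UTR. That of Sox6 lay in an intron, among 247 listed peaks in set 1 and 307 in set 2. Of 19 genes for Argonaute, TNRC6 and microRNA processing, 3 were enriched in both (15.8%): Tnrc6c, Tnrc6b and Tnrc6a, which bind Argonaute. Tnrc6c reached 3.89 and 4.67, Tnrc6b 3.87 and 5.99, and Tnrc6a 3.50 and 5.33. Tnrc6a alone had a recurrent site, in the 3′ UTR. The best peaks of Tnrc6b and Tnrc6c lay in the 3′ UTR in set 1 and in the CDS in set 2. At a log2 threshold of 4, where 195 genes of every kind were enriched in both, 0 genes of the collagen list and of the Argonaute list were, with 1 muscle transcription factor and 2 glycolysis and glycogen genes.

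Contractile genes stood near the 3.97% of all genes. In the sarcomere list 2 of 36 were enriched in both (5.56%), Neb and Pdlim3, and 0 held a recurrent site. Of 28 excitation-contraction coupling genes 1 was (3.57%), Ryr1, in an intron. For fatty acid oxidation (23 genes), atrophy (22 genes) and ribosomal proteins (27 genes), 0 were enriched in both. The median best log2 fold over ribosomal protein genes was -0.46 in set 1 and 0.00 in set 2, against 1.12 and 2.04 over all genes. In the dystrophin complex, Dmd and Utrn of 19 genes were enriched in both (10.5%). Dmd had 670 listed peaks in set 1 and 1075 in set 2, and Utrn 63 and 239. The medians over all genes were 5 and 11. The recurrent sites of both genes lay in introns, and the Utrn site of 27 nt was at 5.37 and 6.16.

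Of 3 known targets of miR-486 listed in both libraries, 1 was enriched in both (33.3%, against 3.97% of all genes). It held a recurrent site. A share of 3 genes does not show an excess. Their median number of listed peaks in set 1 was 36, against 5 over all genes. Foxo1 and Pax7 were not enriched in both. Foxo1 reached a best log2 fold of 2.75 in set 1 and 3.27 in set 2, each in an intron, and Pax7 0.38 and 1.24. The set 2 peak of Foxo1 was enriched. Of the study's 18 targets, a list chosen on these samples, Pgam2 alone was enriched in both KO libraries. Its site holds the miR-133 match and was also enriched in both WT libraries, at 6.05 in set 1 and 3.60 in set 2.

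Tissue markers were read by the same counts, beside the 3.97% of all genes enriched in both. The folds are over each library's own input, so the counts do not measure how much of a cell type was present. Of 12 skeletal muscle fibre markers all were listed in both libraries, and 1 was enriched in both (8.33%). This was Neb, in introns and with no shared site, among 274 listed peaks in set 1 and 552 in set 2. Of 8 satellite cell markers 2 were, Chodl and Notch3, but the Chodl site of 25 nt lay in a noncoding exon and resembled miR-133. For markers of red blood cells (5 listed in both), macrophages (6), B cells (2), endothelium (10), adipocytes (9) and Schwann cells (6), 0 were enriched in both, and of 10 fibroblast markers 1 was (Col1a1).

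Most recurrent KO sites were enriched in WT muscle too. Of the 448 sites, 319 (71.2%) overlapped an enriched peak in both WT libraries, 109 in 1 and 20 in neither. Hairpin sites were shared most, 110 of 114 in both WT libraries, followed by 98 of 145 3′ UTR sites, 39 of 58 CDS sites and 53 of 102 intronic sites. Of the 45 intronic sites enriched in 1 WT library, 35 were enriched in set 2 only. WT set 1 listed 19757 intronic peaks and WT set 2 102099. Of the 20 enriched in neither WT library, 11 lay in 3′ UTRs, among them Nfat5 (3.97 and 3.67 in KO, 1.96 and 2.80 in WT) and Tmem33 (4.26 and 3.54 in KO, 2.82 and 2.24 in WT). The WT log2 folds of the 20 sites ran from 1.78 to 3.52, and whether any of them differs between genotypes was not tested.

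Counts and shares of enriched peaks were compared between genotypes by an exact permutation test over the 4 libraries. With 2 libraries against 2 the smallest possible two-sided p is 0.333, so no difference could pass a threshold. Enriched peaks numbered 2082 ± 1508 in KO and 3388 ± 129 in WT (SD, n = 2, exact p = 0.333). The 3′ UTR share was 33.7% in KO and 30.9% in WT (exact p = 0.333), the CDS share 20.8% and 37.7% (exact p = 0.667) and the intron share 23.9% and 17.4% (exact p = 1.0). Adjusted over the 4 comparisons by Benjamini-Hochberg, the lowest exact p was 0.667. KO minus WT within set 1 was -35.02 percentage points for the CDS share and 17.5 for the intron share, whereas within set 2 it was 1.33 and -4.46. For the number of enriched peaks it was -2281 within set 1 and -331 within set 2, and for the 3′ UTR share 3.08 and 2.596 percentage points.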

How the data were processed

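Per the labels and the study's methods, the authors trimmed reads with cutadapt, handled molecular identifiers with UMI-tools, aligned with STAR, called peaks in each IP library with CLIPper and counted each peak in IP and size-matched input. The authors deposited 1 list per library, with the log2 fold of IP over input and the −log10 of its p-value, written up to 400. Replicates were not pooled. The 4 lists of direct comparisons and the miR-486-enriched libraries were not used here. Of 12 samples, the total IP libraries and inputs gave 4 lists.

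Regions and genes were read at the peak midpoint from GENCODE M21 (GRCm38; the labels name M24), with hairpin before CDS, 3′ UTR, 5′ UTR, noncoding exon and intron, using bedtools 2.31.1, pandas 2.3.3, Biopython 1.88 and SciPy 1.17.1. Touching sites were joined. Overlap and merging were tested on simulated data. Members and lists were chosen with earlier results of these data known. Named genes are the 25 highest recurrent sites, those with most sites, up to 4 members per list, microRNA genes and Mir486 with Ank1; others, including the examples per region and with a seed match, were chosen after their values were seen. A few genes and 1 gene list are not reported here. miR-486, miR-1a-3p and miR-133a-3p were not among the mature sequences used. Enriched narrow peaks can arise where reads of a mature microRNA align to a similar stretch, and the multimapping setting is not given in the sources used here, nor is how an input of 0 reads was treated.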

Additional observations from a re-analysis of the deposited data

Results flagged for a closer look

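The KO minus WT difference in the shares of enriched peaks ran in opposite directions in the 2 library sets. For CDS it was -35.0 percentage points in set 1 and 1.33 in set 2. For introns it was 17.5 points in set 1 and -4.46 in set 2. The difference between the sets was not tested, since each set holds 1 library per genotype.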

How the results depend on the processing

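Thresholds decided the counts. At a log2 fold of 1 the enriched peaks numbered 2391 in KO set 1 and 12082 in KO set 2, recurrent sites 1352 and recurrent genes 944; at a log2 fold of 4 they numbered 489, 1064, 191 and 195. Leaving out peaks or sites of at most 35 nt, a choice made after seeing the data, left 535 enriched peaks in KO set 1, 251 sites and 265 genes. The mean 3′ UTR share was 37.3% at a log2 fold of 1, 21.4% at 4, 36.8% with 3′ UTR before CDS, 31.5% at the peak's 5′ end, 37.8% with adjoining peaks merged and 55.4% without narrow peaks. The intron share was 13.2%, 30.7%, 28.6% at the 5′ end, 20.6% at a −log10 p of 5 and 12.3% without narrow peaks. The CDS share was 36.9% at a log2 fold of 1, and the hairpin share 30.9% at 4 and 0.909% without narrow peaks. By single libraries the shares ran from 32.7% to 34.7% for 3′ UTRs, 11.02% to 30.6% for CDS, 22.05% to 25.7% for introns and 8.13% to 22.05% for hairpins. The miR-1/miR-206 match was in 25.5% of wider windows and 30.3% with a 6-nt match, and in 8.35% to 13.03% of the enriched 3′ UTR peaks of single libraries. The miR-29 match rose to 8.97% with 6 nt. The other 59 values computed for these results stayed within 1.5 times the count, 1 SD or the counting interval, or kept the direction of KO against WT. The order of the regions changed at a log2 fold of 4, where 3′ UTRs came below introns and hairpins. With the library set as a block, added after seeing the data, KO minus WT was the same (-1306 enriched peaks, and 2.84, -16.8 and 6.51 percentage points for the 3′ UTR, CDS and intron shares), with exact p = 0.5, 0.5, 1.0 and 1.0, where 0.5 is the smallest possible. Among the gene list counts, 33 alternative values moved by over 1.5 times and 63 did not. At a log2 fold of 1 the genes enriched in both rose to 20 for sarcomere, 9 for excitation-contraction coupling, 16 for glycolysis and glycogen, 12 for collagen and 11 for the study's targets; at 4 they were 0, 0, 2, 0 and 0, with 0 for the Argonaute list and 1 for muscle transcription factors. Without narrow peaks glycolysis and glycogen had 3. The cause of each change was not tested.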
